A study of Homo sapiens and Mus musculus with 29 samples.

Results

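The ferlin genes were followed in tumors and metastases of HPAF-II, an established human cell line of pancreatic ductal adenocarcinoma. They are 5 of the 58719 genes in the RNA-seq table, found by symbol: FER1L6, MYOF, DYSF, OTOF and FER1L5. The family was chosen by the difference of FER1L6 between tumors labeled HNF4G-KO and control tumors, so that difference is described here without a test. FER1L4, a transcribed pseudogene of the same family, is shown beside the 5 genes.

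HPAF-II cells were injected into the pancreas of NSG mice, which lack functional lymphocytes. Control tumors (n = 3) came from cells that had received Cas9 with an empty vector. Tumors labeled HNF4G-KO (n = 4) came from cells with CRISPR frameshift mutations in HNF4G, a nuclear receptor transcription factor. The study's methods describe these cells as a pool of 3 knockout clones and call the frameshift mutations heterozygotic. Tumors labeled FOXA1-OE (n = 3) carried lentiviral overexpression of the pioneer factor FOXA1, and those labeled HNF4G-KO + FOXA1-OE (n = 5 from 4 mice) carried both changes. Metastases were 2 from HNF4G-KO mice, both in the peritoneum, and 4 from 3 HNF4G-KO + FOXA1-OE mice, in the spleen, the peritoneum and the fat of the peritoneum. The mice were young adults when obtained, and the study's methods state that fewer cells were injected in the FOXA1-OE experiment. The labels do not say whether FOXA1 was introduced into the same knockout clones, so an effect of the clones and an effect of the knockout cannot be told apart.

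Ferlins are large proteins anchored in membranes by their tail, with a row of domains that bind phospholipids, many of them in the presence of calcium. They take part in the fusion of vesicles with membranes, including the patching of a torn plasma membrane. Dysferlin, the product of DYSF, seals the membrane of muscle fibers, and its loss causes a muscular dystrophy. Myoferlin (MYOF) acts in myoblast fusion, in the traffic of growth factor receptors and in several carcinomas, otoferlin (OTOF) in transmitter release from hair cells of the ear, and FER1L5 in myoblast fusion. The function of FER1L6 is little known.

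Values are RPKM as deposited, that is read numbers scaled to the length of the gene and to the depth of the library. Libraries held 33.1 to 69.6 M reads (M for mega), as worked out from the steps between low values. The read number of the most common step was assumed, so depths and read numbers rest on this assumption. All libraries had the epithelial markers EPCAM, CDH1, KRT8, KRT18 and KRT19, with a sum of 2685 to 5088 RPKM. HNF4G mRNA was higher in tumors labeled HNF4G-KO (5.72 to 8.42 RPKM) than in control tumors (2.48 to 3.47 RPKM). A frameshift does not have to lower the mRNA, so this level does not check the label. FOXA1-OE tumor 3 had 0.763 RPKM of FOXA1, inside the range of the control tumors (0.519 to 0.932 RPKM), whereas 6.32 and 8.18 RPKM were measured in FOXA1-OE tumors 1 and 2. Of the HNF4G-KO + FOXA1-OE metastases, metastases 1, 3 and 4 had 0.535, 1.30 and 1.56 RPKM of FOXA1, below the 4.65 to 23.1 RPKM of the tumors with this label. Groups are therefore named as labeled, and limma differences that rest on these libraries are also given without them for FER1L6, MYOF, FER1L4 and the named genes that were called.

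FER1L6 (ENSG00000214814.7) lies on the plus strand of chromosome 8 from 123851987 to 124120061 (GRCh38). In the control tumors it was at 1.935, 0.795 and 0.161 RPKM, from 666, 169 and 48 reads. In the tumors labeled HNF4G-KO it was at 9.90, 8.97, 10.9 and 12.6 RPKM, from 3166 to 4891 reads. The groups did not overlap, with means of 0.964 ± 0.899 RPKM (SD, n = 3) in controls and 10.6 ± 1.55 RPKM (SD, n = 4) with the knockout label, which is 10.99-fold. The share of all genes without overlap was not counted, and the family was chosen by this difference. The 3 control tumors spread over a wider relative range than the 4 knockout tumors, as the plot of the ferlin genes by sample shows.

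**Figure D1:**
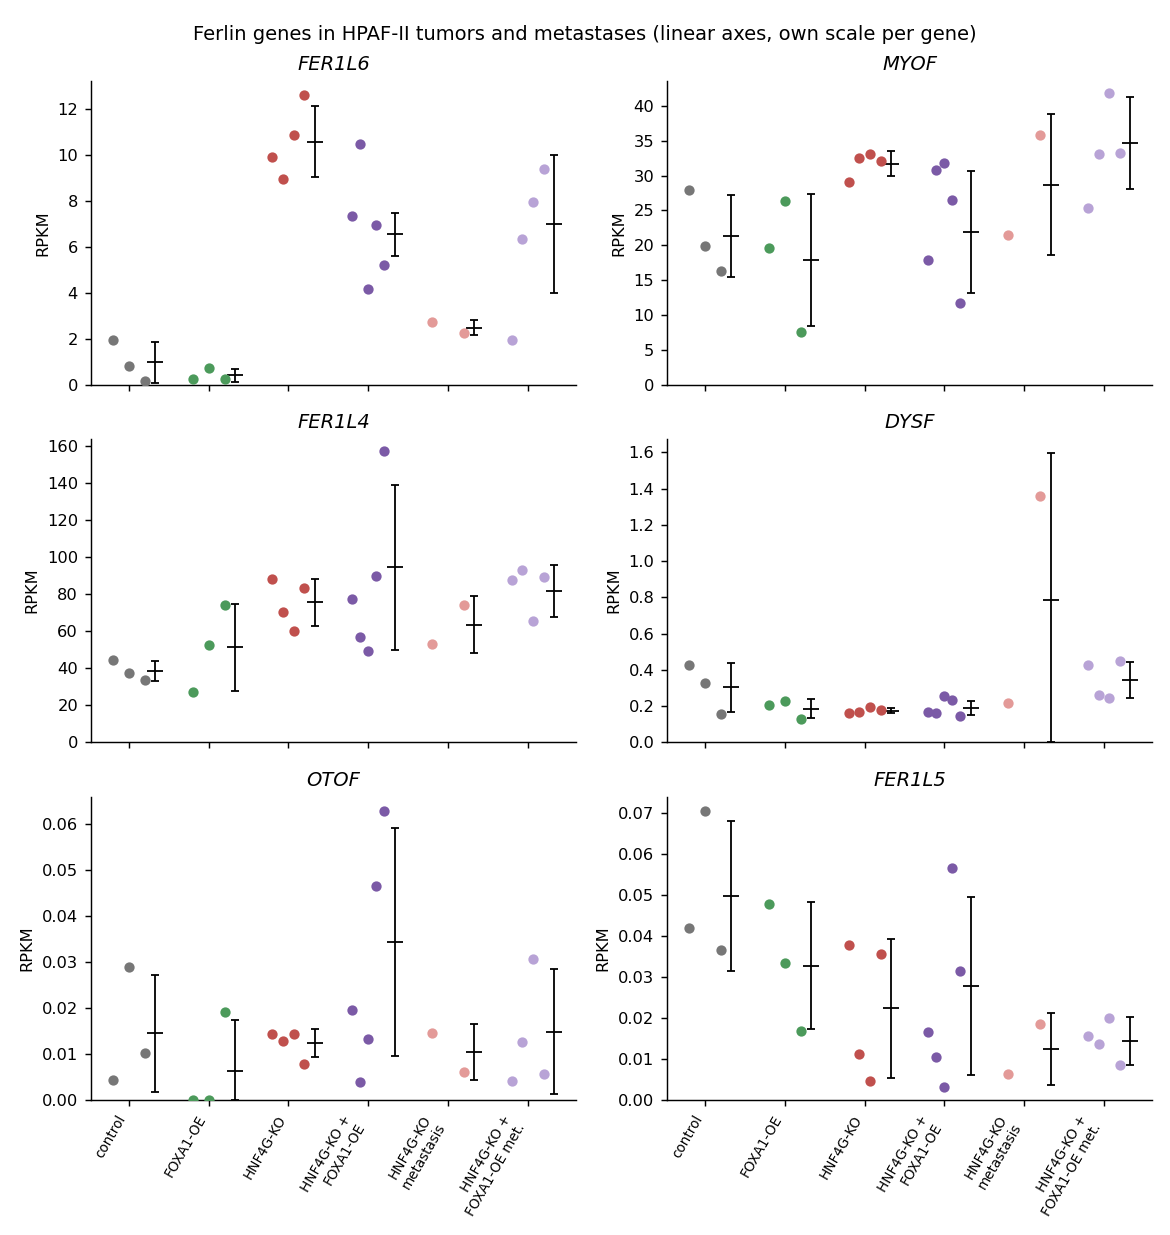
RPKM of 6 ferlin genes (vertical axes, linear, with a scale for each gene) in the 6 groups of HPAF-II tumors and metastases. Points are samples in the order of their number, and black marks with bars are the mean ± SD over mice, with bars ended at 0. FER1L6 is between 4.15 and 12.6 RPKM in all tumors labeled HNF4G-KO or HNF4G-KO + FOXA1-OE and at most 1.935 RPKM in the other tumors.

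Whether FER1L6 also differed in mice that did not take part in its selection was asked with the FOXA1-OE tumors. Without HNF4G-KO, FOXA1-OE tumors 1 to 3 had 0.226, 0.727 and 0.238 RPKM of FER1L6, from 60, 225 and 57 reads. With HNF4G-KO, FOXA1-OE tumors 1 to 5 had 7.35, 10.5, 4.15, 6.93 and 5.21 RPKM, from 1433 to 4030 reads. The lowest tumor with the knockout label was thus above the highest without it, and this lowest tumor shared its mouse with the highest of the 5. Averaged over mice, FER1L6 was at 0.397 ± 0.286 RPKM (SD, n = 3) without and at 6.54 ± 0.932 RPKM (SD, n = 4) with the knockout label, a ratio of 16.5.

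With log2(RPKM + 1), which understates the change of genes at low levels, FER1L6 was higher by 2.44 (standard error 0.254, 95% confidence interval 1.90 to 2.99, limma adjusted p = 0.000254). In this fit the spread and the RPKM filter were taken over all primary tumors, so tumors used in the selection entered them. The mice differ from those of the selection but the cell line is the same, so other cells were not tested. By size of the difference it was number 28 of the 14269 genes tested. Of these genes, 1122 (7.86%) had an adjusted p-value under 0.05, 474 of them higher and 648 lower in HNF4G-KO + FOXA1-OE tumors. The two-sided exact permutation test over the 4 and 3 mice gave p = 0.0571, the smallest value this design allows. Without FOXA1-OE tumor 3, whose FOXA1 mRNA was at the control level, the difference was 2.37 (limma adjusted p = 0.00151). FER1L6 passed the filter of a mean of 1 RPKM through the groups with HNF4G-KO, since all tumors without it but control tumor 1 were under 1 RPKM.

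Markers of myeloid cells, listed as host markers, differed between the same groups. Here and for the other host lists, reads were counted on human genes. Whether these reads came from mouse cells or from HPAF-II cells was not tested. All 6 genes of this list (PTPRC, CSF1R, CD68, CD14, ITGAM and ADGRE1) were in the table. Their sum was 14.04 to 18.5 RPKM in FOXA1-OE tumors and 4.11 to 8.90 RPKM in HNF4G-KO + FOXA1-OE tumors. ADGRE1 was under 0.1 RPKM in all FOXA1-OE tumors and in all tumors labeled HNF4G-KO. In control tumors and tumors labeled HNF4G-KO the sums were 14.2 to 18.8 and 5.35 to 6.92 RPKM. Between these groups of primary tumors, FER1L6 was the higher where this sum was the lower. The part of host myeloid cells in its difference was not tested. Of the 6002 windows of 50 bases in FER1L6, the length of the reads, 4 were found letter for letter in mouse transcripts, all in mouse Fer1l6, and 0 in transcripts of other human genes. Matches with mismatches, which an aligner can accept, were not counted. In bulk tumors, fewer cells that express a gene and less RNA per cell cannot be told apart.

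Added to HNF4G-KO, FOXA1-OE went with a mean of FER1L6 that was 0.618 times that of HNF4G-KO tumors, and the ranges of 4.15 to 10.5 RPKM and 8.97 to 12.6 RPKM overlapped. Without HNF4G-KO, FOXA1-OE tumors had 0.412 times the mean of control tumors, again with overlapping ranges. These are descriptions, as both share tumors with the selection.

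In metastases, the level of FER1L6 depended on the sample. The 2 metastases of HNF4G-KO mice were at 2.71 and 2.24 RPKM, below all 4 tumors with this label, while both were above the 3 control tumors. In the same mice, the tumors had 8.97 and 12.6 RPKM, so that the metastasis had 0.303 and 0.178 times the level of its tumor. Host muscle markers, named with DYSF below, summed to 1.57 RPKM in HNF4G-KO metastasis 1 and 1111 RPKM in metastasis 2. Host stroma markers summed to 79.7 and 429 RPKM in these metastases. The part of host tissue in these levels of FER1L6 was not tested. Of the HNF4G-KO + FOXA1-OE metastases, the metastasis of the spleen was at 1.94 RPKM and the others at 6.33, 7.95 and 9.40 RPKM. The mouse with the spleen metastasis had 7.35 RPKM in its tumor and 6.33 RPKM in a metastasis of the fat, ratios of 0.263 and 0.861. In the other mouse with both a tumor and a metastasis library, the metastasis of the peritoneum had 1.36 times the level of the tumor. Metastases were thus lower than the tumor of their mouse in 4 of 5 pairs, of which 2 share a tumor.

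**Figure D2:**
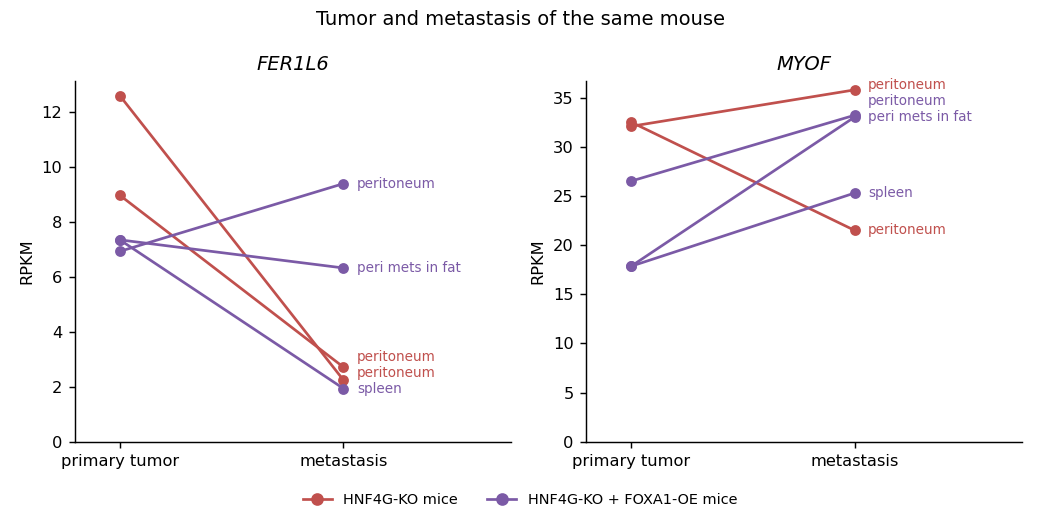
RPKM (vertical axes, linear, from 0) of FER1L6 and MYOF in the primary tumor and the metastasis of a mouse, with a line for each pair and the site of the metastasis at its end. FER1L6 fell along 4 of 5 lines, to 2.71 and 2.24 RPKM in HNF4G-KO mice, and MYOF ended higher than it began in 4 of 5.

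Over the HNF4G-KO + FOXA1-OE mice, the mean of FER1L6 was 6.995 ± 3.00 RPKM (SD, n = 3 mice) in metastases and 6.54 ± 0.932 RPKM (SD, n = 4 mice) in tumors. The difference was 0.01 on the log2 scale (standard error 0.237, 95% confidence interval -0.50 to 0.52, limma adjusted p = 0.988). Of 14099 genes tested in this comparison, 1 (0.00709%) passed, ENSG00000237550, which was lower by 2.21 in metastases and was named after its value was seen. Unadjusted p-values under 0.05 were found for 1356 genes. Without the 3 metastases of low FOXA1, which leaves a single metastasis assumed to vary like the other groups, the difference of FER1L6 was -0.03. Host stroma markers, all 10 of them in the table, had a sum of 80.0 to 223 RPKM in these metastases and 53.5 to 123 RPKM in the tumors. A fit with them as a covariate is among the alternatives below, and their part in the levels was not tested further.

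Ordered by their means over mice, FER1L6 was highest in HNF4G-KO tumors (10.6 RPKM), followed by HNF4G-KO + FOXA1-OE metastases (6.995 RPKM), HNF4G-KO + FOXA1-OE tumors (6.54 RPKM), HNF4G-KO metastases (2.48 RPKM), control tumors (0.964 RPKM) and FOXA1-OE tumors (0.397 RPKM). The samples of neighbors in this order overlapped except between HNF4G-KO + FOXA1-OE tumors and HNF4G-KO metastases, and between the latter and control tumors.

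MYOF (ENSG00000138119.16), on the minus strand of chromosome 10 from 93306429 to 93482334, had the highest RPKM of the 5 ferlin genes in every sample. It was at 27.9, 19.8 and 16.3 RPKM in control tumors and at 29.1, 32.5, 33.1 and 32.1 RPKM in tumors labeled HNF4G-KO. The ranges did not overlap, and control tumors averaged 21.3 ± 5.94 RPKM (SD, n = 3), against 31.7 ± 1.77 RPKM (SD, n = 4) with the knockout label. The share of all genes without overlap was not counted, so whether this separation is unusual cannot be said. By a different measure, limma called 1736 of 14269 genes (12.2%) between these groups.

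The difference of MYOF between the groups with FOXA1-OE was within the spread of the mice. FOXA1-OE tumors had 19.6, 26.3 and 7.59 RPKM, and HNF4G-KO + FOXA1-OE tumors 1 to 5 had 17.9, 30.7, 31.8, 26.5 and 11.7 RPKM. The log2 difference was 0.35 (standard error 0.368, 95% confidence interval -0.44 to 1.14, limma adjusted p = 0.6004), and -0.14 without FOXA1-OE tumor 3. In this tumor the 10 highest genes took 32.6% of all RPKM, against 14.4% and 20.5% in the other FOXA1-OE tumors. In HNF4G-KO + FOXA1-OE tumors 1 to 5 they took 14.6%, 38.8%, 24.85%, 39.6% and 29.5%. The part of this share in the level of MYOF was not tested. MYOF was at 25.3, 33.1, 41.9 and 33.2 RPKM in HNF4G-KO + FOXA1-OE metastases, higher by 0.72 than in the tumors (standard error 0.284, 95% confidence interval 0.10 to 1.33), but this did not pass adjustment over all genes (limma adjusted p = 0.482), and by 0.66 without the 3 metastases of low FOXA1. All 3 pairs of tumor and metastasis from these mice had more MYOF in the metastasis, by 1.42, 1.85 and 1.25 times. In HNF4G-KO mice the ratios were 0.661 and 1.11.

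FER1L4 (ENSG00000088340.15), on the minus strand of chromosome 20 from 35558737 to 35607562, had a higher RPKM than MYOF in each of the 21 samples. In control tumors it was at 44.7, 37.3 and 33.7 RPKM and in tumors labeled HNF4G-KO at 88.3, 70.5, 59.9 and 83.4 RPKM, without overlap. As for MYOF, the share of all genes without overlap was not counted. FOXA1-OE tumors had 27.2, 52.8 and 74.0 RPKM, and HNF4G-KO + FOXA1-OE tumors 77.5, 56.9, 49.5, 89.9 and 157 RPKM. These overlapped, with a log2 difference of 0.87 (standard error 0.350, 95% confidence interval 0.12 to 1.62, limma adjusted p = 0.148), and of 1.18 without FOXA1-OE tumor 3 (adjusted p = 0.0638). Between metastases and tumors of HNF4G-KO + FOXA1-OE mice the difference of FER1L4 was -0.11 (standard error 0.303, limma adjusted p = 0.898), and 0.09 without the metastases of low FOXA1.

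**Figure D3:**
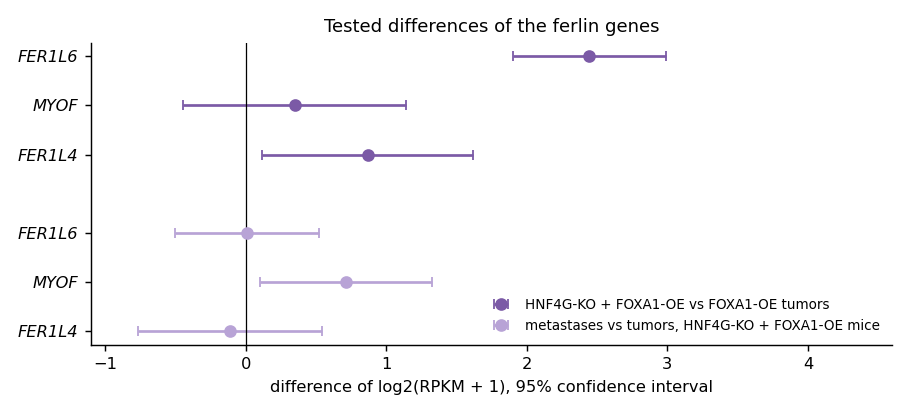
Difference of log2(RPKM + 1) with its 95% confidence interval (horizontal axis) for the 3 ferlin genes that passed the RPKM filter, in the 2 comparisons that did not choose the family. The interval of FER1L6 between groups with FOXA1-OE lies at 1.90 to 2.99, and that of FER1L6 between metastases and tumors includes 0.

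DYSF (ENSG00000135636.13), on the plus strand of chromosome 2 from 71453561 to 71686763, stayed low in most samples. It was at 0.426, 0.329 and 0.155 RPKM in control tumors and between 0.127 and 0.255 RPKM in the other 12 tumors. The exception was HNF4G-KO metastasis 2, with 1.36 RPKM from about 466 reads, against 0.218 RPKM in HNF4G-KO metastasis 1 and 0.245 to 0.447 RPKM in the HNF4G-KO + FOXA1-OE metastases. The tumor of the mouse with this metastasis had 0.177 RPKM. Muscle markers were high in the same library. The 5 of 6 listed genes that were in the table, ACTA1, CKM, DES, MYH2 and TNNT3, summed to 1111 RPKM there, to 1.57 RPKM in the other HNF4G-KO metastasis and to 1.53 to 2.25 RPKM in HNF4G-KO tumors. The next highest sum of any sample was 36.2 RPKM. Windows of DYSF that also occur in mouse transcripts were 11 of 8973, all in mouse Dysf, and the part of host muscle in this level was not tested. With an exact permutation test, the difference of DYSF between HNF4G-KO + FOXA1-OE and FOXA1-OE tumors had p = 0.914.

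OTOF (ENSG00000115155.17, chromosome 2, 26457203 to 26558756, minus strand) and FER1L5 (ENSG00000249715.11, chromosome 2, 96642737 to 96704887, plus strand) were close to the limit of detection. OTOF did not exceed 0.0628 RPKM in any sample and was listed at 0 in FOXA1-OE tumors 1 and 2. FER1L5 was between 0.00334 and 0.0707 RPKM. With an exact permutation test, p was 0.114 for OTOF and 0.686 for FER1L5 between HNF4G-KO + FOXA1-OE and FOXA1-OE tumors, and at such levels a difference was not detectable. In all, 2 of the 5 genes, FER1L6 and MYOF, passed the filter in both tested comparisons.

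The share of FER1L6 in the RPKM summed over the 5 genes followed from these levels. MYOF made up 92.0% to 97.8% of the sum in control tumors and 94.98% to 97.6% in FOXA1-OE tumors. It made up 71.5% to 78.0% in HNF4G-KO tumors and 68.3% to 87.8% in HNF4G-KO + FOXA1-OE tumors. FER1L6 took 0.968% to 6.39% of the sum in control tumors and 21.5% to 28.04% in HNF4G-KO tumors. In the 2 HNF4G-KO metastases, FER1L6 was down to 11.1% and 5.68%.

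The annotation holds 31 other genes within 500 kb of FER1L6, of which 11 passed the RPKM filter in primary tumors. Between HNF4G-KO and control tumors, 0 of the 11 were called higher and 2 lower by limma, where 1736 of all 14269 genes tested (12.2%) were called, 882 higher and 854 lower. The 2 genes were NDUFB9, a subunit of respiratory complex I, lower by 0.87 (adjusted p = 0.00770) and NTAQ1, an amidase of protein N-termini, lower by 0.55 (adjusted p = 0.0235). Between HNF4G-KO + FOXA1-OE and FOXA1-OE tumors 2 of the 11 were called, beside 7.86% of all genes. ANXA13, an annexin that binds membranes, was called higher by 1.26 (standard error 0.359, limma adjusted p = 0.0471) and NTAQ1 lower by 0.55 (adjusted p = 0.0272). ANXA13 had 3.27, 4.92 and 1.74 RPKM in FOXA1-OE tumors and 5.32 to 13.4 RPKM with HNF4G-KO, but its call was lost on leaving out any of 6 of the 7 mice, with adjusted p-values of 0.0315 to 0.142 over the 7. Without FOXA1-OE tumor 3, ANXA13 was higher by 0.97 (limma adjusted p = 0.142) and NTAQ1 lower by 0.52 (adjusted p = 0.0554). Leaving out each mouse in turn, NTAQ1 had limma adjusted p-values of 0.0297 to 0.0918 between groups with FOXA1-OE (4 of 7 passed) and of 0.0452 to 0.119 between HNF4G-KO and control tumors (2 of 7 passed), and NDUFB9 missed the threshold in the latter comparison without control tumor 2 (adjusted p = 0.0513). FAM91A1, the nearest tested gene at 36.5 kb, had a log2 difference of 0.42 (adjusted p = 0.428) and 0.60 between HNF4G-KO and control tumors (adjusted p = 0.199).

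**Figure D4:**
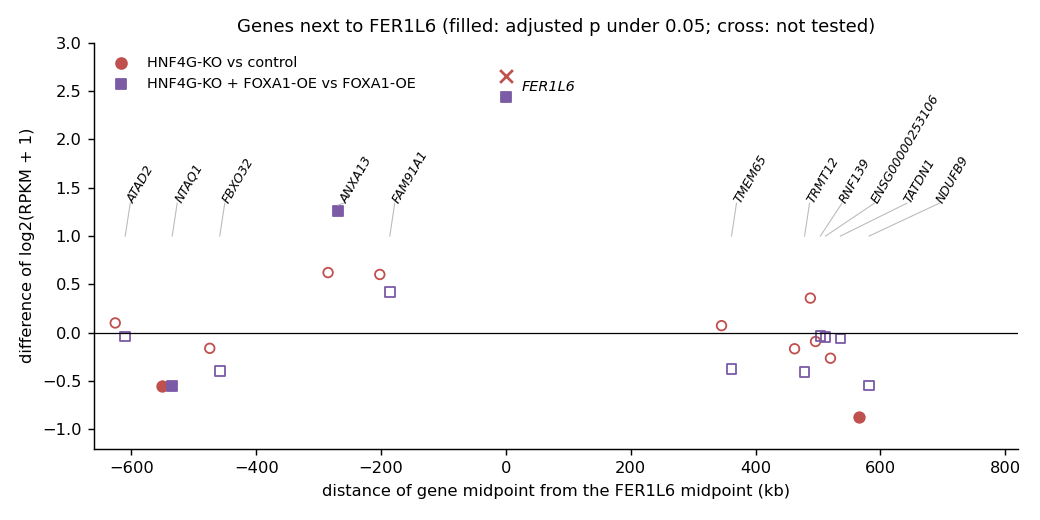
Difference of log2(RPKM + 1) (vertical axis) of FER1L6 and the 11 tested genes within 500 kb of it, by the distance between midpoints in kb (horizontal axis), with both comparisons drawn 8 kb to the left and right of each position. Filled symbols passed the limma test, and the cross is FER1L6 between HNF4G-KO and control tumors, which was not tested. FER1L6 lies at 2.44 and 2.65, and ANXA13 at 1.26 is the next highest.

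The antisense RNAs FER1L6-AS1 and FER1L6-AS2 overlap FER1L6 on the minus strand, as do lncRNA genes without a symbol, and were under the filter. FER1L6-AS1 was at most 0.148 RPKM in control tumors and 0.0328 RPKM in FOXA1-OE tumors, between 0.131 and 0.216 RPKM in HNF4G-KO tumors and between 0.0378 and 0.777 RPKM in HNF4G-KO + FOXA1-OE tumors. FER1L6-AS2 was at most 0.0489 RPKM in tumors without HNF4G-KO, and listed at 0 in control tumor 3 and FOXA1-OE tumors 2 and 3, while the 9 tumors with HNF4G-KO had 0.0201 to 0.486 RPKM. The kit was stranded, but whether strand was used in counting is not stated, so reads of FER1L6 and of its antisense RNAs may not be separable.

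By their levels over 19 values, in which samples of the same kind from a mouse were averaged, the genes most like FER1L6 among 14229 genes were RYR2, a calcium release channel (Pearson r = 0.956), ACER2, a ceramidase (0.954), RAB11FIP1, which binds a GTPase of recycling endosomes (0.953), PLEKHA7, a protein of adherens junctions (0.943), and PSMD10P2, a pseudogene (0.943). These correlations are a description, as the values share mice and groups. For ACER2 the ranges were 0.254 to 1.05 RPKM in control tumors, 0.203 to 0.428 RPKM in FOXA1-OE tumors, 4.43 to 6.43 RPKM in HNF4G-KO tumors and 1.77 to 5.71 RPKM in HNF4G-KO + FOXA1-OE tumors. RAB11FIP1 ranged from 0.714 to 3.46 RPKM in tumors without HNF4G-KO and from 3.86 to 11.7 RPKM in those with it. In HNF4G-KO metastases, RAB11FIP1 was at 3.48 to 5.09 RPKM, below the 8.71 RPKM of the lowest HNF4G-KO tumor. The r with FER1L6 was 0.717 for ANXA13, 0.570 for MYOF, 0.684 for HNF4G and 0.152 for FOXA1.

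Other genes of membrane repair were taken from a list of 47, made up of annexins and S100 proteins, calpains, proteins of caveolae and scaffolds, the ESCRT machinery and lysosomal exocytosis. Between HNF4G-KO and control tumors, 4 of the 43 tested were called higher and 3 lower by limma, beside 12.2% of all genes in either direction. The median difference of the list was -0.01, against 0.01 for all genes. SYT7, a calcium sensor of lysosomal exocytosis, was at 1.62 to 2.70 RPKM in control tumors and 5.25 to 8.01 RPKM in HNF4G-KO tumors, with a log2 difference of 1.28 (standard error 0.239, limma adjusted p = 0.00730). SNAP23, a membrane fusion protein of the plasma membrane, rose from a range of 2.22 to 3.26 RPKM to one of 5.22 to 6.58 RPKM (log2 difference 0.88, adjusted p = 0.00730). AHNAK2, a scaffold protein, and DNM2, which pinches off vesicles, were higher by 0.91 (adjusted p = 0.0434) and 0.84 (adjusted p = 0.0257).

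Among the genes of caveolae, CAVIN1, which forms their coat, was at 5.37 to 7.82 RPKM in control tumors and fell to 2.21 to 3.26 RPKM in HNF4G-KO tumors (log2 difference -1.07, limma adjusted p = 0.00246). PARVB, a protein of focal adhesions known to bind dysferlin, fell from a range of 2.18 to 2.74 RPKM to one of 0.478 to 0.659 RPKM (log2 difference -1.16, adjusted p = 0.000640). ANXA6, an annexin of membrane repair, was lower by 0.62 (adjusted p = 0.0404). On leaving out each mouse in turn, the calls of SYT7, SNAP23, CAVIN1 and PARVB passed in 7 of 7 cases, that of AHNAK2 in 1, and those of DNM2 and ANXA6 in 0, with adjusted p-values of 0.04995 to 0.174, 0.0544 to 0.120 and 0.0506 to 0.201. Host stroma markers summed to 61.3, 198 and 204 RPKM in control tumors, from lowest to highest. In HNF4G-KO tumors they summed to 54.1 to 75.7 RPKM. With these markers as a covariate, SYT7, SNAP23, CAVIN1 and PARVB kept their calls. Beyond that fit, the part of host stroma in these differences was not tested.

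**Figure D5:**
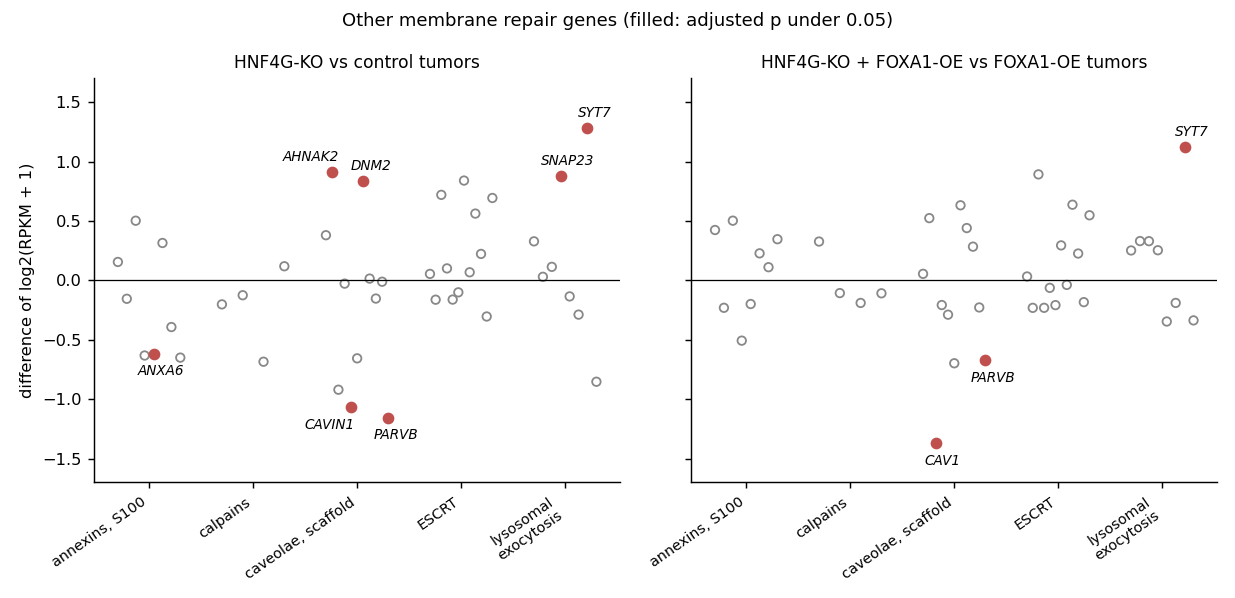
Difference of log2(RPKM + 1) (vertical axis) of the 43 tested membrane repair genes, by group, between HNF4G-KO and control tumors (left) and between HNF4G-KO + FOXA1-OE and FOXA1-OE tumors (right). Filled and named genes passed the limma test, 7 on the left and 3 on the right. SYT7 is the highest on both sides, at 1.28 and 1.12.

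Between HNF4G-KO + FOXA1-OE and FOXA1-OE tumors, 1 of the 43 genes was called higher and 2 lower, beside 7.86% of all genes, and the median of the list was 0.03, against -0.03 for all genes. SYT7 was at 2.32 to 4.24 RPKM in FOXA1-OE tumors and 5.01 to 13.5 RPKM with HNF4G-KO (log2 difference 1.12, standard error 0.239, limma adjusted p = 0.0124). PARVB fell from a range of 1.93 to 2.47 RPKM to one of 0.512 to 1.27 RPKM (log2 difference -0.67, adjusted p = 0.0109). CAV1, the main protein of caveolae, fell from a range of 20.4 to 46.1 RPKM to one of 8.42 to 16.4 RPKM (log2 difference -1.37, adjusted p = 0.0131). Without FOXA1-OE tumor 1, SYT7 and CAV1 no longer passed, at limma adjusted p = 0.0634 and 0.0663, and in a fit of only the groups compared SYT7, PARVB and CAV1 all missed the threshold, at adjusted p = 0.130, 0.172 and 0.106. Without FOXA1-OE tumor 3 the differences were 1.30, -0.59 and -1.65, and all 3 passed (adjusted p = 0.0106, 0.0328 and 0.00702). SNAP23 and CAVIN1, called between HNF4G-KO and control tumors, were not called between the groups with FOXA1-OE. Their log2 differences there were 0.25 and -0.29 (limma adjusted p = 0.372 and 0.3015). AHNAK2, DNM2 and ANXA6 were not called there either. Host stroma markers summed to 37.9 to 165 RPKM in FOXA1-OE tumors and 53.5 to 123 RPKM in HNF4G-KO + FOXA1-OE tumors. Between metastases and tumors of HNF4G-KO + FOXA1-OE mice, limma called 0 of 42 repair genes and 0 of the 11 genes around FER1L6, with 1 of each under 0.05 before adjustment. As 1 of all 14099 genes (0.00709%) was called there, nothing is read from these counts.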

How the data were processed

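RNA-seq of 21 HPAF-II samples from 15 mice was used. The KPC table was not used here. The authors aligned 50-base single-end reads with STAR 2.6.1a, and the submitters' processing notes also name featureCounts 2.0.4, DESeq2 and GRCh38, while the methods name GRCh37. RPKM values were deposited per gene and sample. Symbols were found for 58250 of 58719 gene IDs, and coordinates come from GENCODE 44. Depth and the reads of FER1L6 and DYSF were worked out from the steps between RPKM values, with the read number of the most common step assumed. The resulting reads were whole at 99.7% or more of low values (tolerance 0.02). They would also be whole at any whole multiple of the depth, so this does not check the scale. For DYSF, 3 gene lengths give whole reads, so its read numbers are approximate. Mouse transcripts were those of GENCODE M21.

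From the RPKM values, log2(RPKM + 1) was computed, and samples of the same kind from a mouse were averaged. Genes whose mean in a fit reached 1 RPKM entered limma 3.58.1 in R 4.3.3 (eBayes with trend, Benjamini-Hochberg, threshold 0.05), on all primary tumors in a single fit and on tumors and metastases with HNF4G-KO in another. For single ferlin genes, mice were permuted in an exact two-sided test. The fits were tested on simulated data. Alternatives were a pseudocount of 0.1, no filter, a shift to the same median, only the groups compared, tumors of a mouse kept separate, host stroma as a covariate, a replicate block and leaving out mice or the spleen metastasis, and, added after the data were seen, leaving out the metastases of low FOXA1.

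The ferlin genes, the lists and the tests were chosen with earlier results of these data known. Genes were named by rule: the ferlins, the 5 genes most like FER1L6, its neighbors within 500 kb, and up to 4 called repair genes per direction and comparison. Tumors with the same replicate number in different groups came from different mice, and their deviations correlated at -0.27 to 0.63. Tumors and metastases of the same mouse correlated at 0.25, 0.30, 0.27 and -0.03. The latter values lie inside the range of the former, so these correlations do not show which samples are paired. P-values between groups of tumors measure the spread between mice of a single experiment. In the main fit of metastases and tumors, values from the same mouse were treated as independent. With the mouse as a replicate block, an alternative, the correlation within mice was 0.342.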

Additional observations from a re-analysis of the deposited data

How the results depend on the processing

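FER1L6 was called higher in HNF4G-KO + FOXA1-OE than in FOXA1-OE tumors under all 14 alternatives, at 2.36 to 3.87 on the log2 scale (limma adjusted p = 0.000147 to 0.00655), and at 2.36 to 2.61 on leaving out each mouse. With the replicate number as a replicate block it was 2.38 (adjusted p = 0.00278). Tumors with the same number in different groups came from different mice. Under this block CAV1 and NTAQ1 lost their calls in this comparison (adjusted p = 0.0581 and 0.133), as did AHNAK2 between HNF4G-KO and control tumors (0.0649). The number of genes called in this comparison, 1122, was 930 with the replicate block, 86 with only the groups compared, where no repair gene passed and NTAQ1 and ANXA13 also lost their calls (adjusted p = 0.254 and 0.119), and 571 to 1439 on leaving out a mouse, 571 without FOXA1-OE tumor 1. MYOF ran from -0.14 without FOXA1-OE tumor 3 to 0.69 without FOXA1-OE tumor 2.

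Between metastases and tumors of HNF4G-KO + FOXA1-OE mice, FER1L6 lay close to 0 and its sign was not stable. It was -0.012 with a pseudocount of 0.1, -0.019 with samples shifted to the same median, -0.13 with the host stroma covariate, -0.045 with the mouse as a replicate block, -0.033 without the metastases of low FOXA1 and -0.19 to 0.42 on leaving out each mouse (-0.11 without metastasis 3, -0.08 without tumor 5, -0.19 without the mouse of tumor 4, 0.42 without that of tumor 1). FER1L4 turned from -0.11 to 0.04 without metastasis 3, 0.17 without tumor 5, with a range down to -0.35 on leaving out each mouse, and 0.093 without the metastases of low FOXA1. The single gene called became 0 without the filter, with only the groups compared, with host stroma and without the metastases of low FOXA1 (2789, 732, 1017 and 477 at an unadjusted p-value under 0.05), 11 with the mouse as a replicate block, and 0 to 57 on leaving out each mouse, 57 without that of tumors 2 and 3.

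Between HNF4G-KO and control tumors, 1736 genes were called, 2235 with the replicate block, 5595 with only the groups compared, 3422 with host stroma as a covariate and 284 to 1165 on leaving out each mouse, 284 without control tumor 2. Repair genes called went from 7 to 4 without the filter, 19 with only the groups compared and 11 with host stroma. The cause of these changes was not tested.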
